A study of Mus musculus with 18 samples.

Results

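Serpins are a superfamily of proteins that share 1 fold, and most of them block proteases. They were taken as every row of the expression table whose symbol is Serpin, a clade letter from a to i, a number and, in some, a further letter, with Serping1 left out. This gave 61 genes of 23951. The 60 described here are 24 of clade A, 27 of clade B, 2 each of clades E, F and I, and 1 each of clades C, D and H.

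An inhibitory serpin offers a protease a loop near its C-terminal end, the reactive centre loop. When the protease cuts the loop, the serpin folds the cut strand into itself and traps the enzyme, so each molecule works once. Clade A serpins are mostly secreted plasma or acute-phase proteins, clade B serpins mostly stay inside the cell, and clade E serpins include inhibitors of plasminogen activators. A few members, among them Serpinh1, Serpinf1 and Serpinb5, inhibit no protease and do other work. In pancreas, where acinar cells make large amounts of digestive protease precursors, protease inhibitors are part of the tissue's own protection.

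Poly(A) RNA was sequenced in 18 libraries of cells sorted from fresh mouse pancreas or pancreatic tumors. The 5 groups were 3 libraries of fibroblasts from normal pancreas (NPF), 5 of cancer-associated fibroblasts of Saa3 wild-type mice (WT_CAF) and 3 of mice lacking Saa3 (KO_CAF), and likewise 4 of tumor cells (WT_tumor) and 3 lacking Saa3 (KO_tumor). Saa3 encodes an acute-phase serum amyloid protein. Values are FPKM, a level per transcript length and per mapped fragment, and are given per library in the order of the replicate numbers, which follow the deposition order only. All mice carried Elas-tTA/tetO-Cre, in which an elastase promoter, active in acinar cells, drives the activator of Cre, and a Rosa26+/EYFP reporter. The NPF mice were K-Ras+/+ with no Trp53 allele listed. The mice of the other 4 groups all carried K-Ras+/LSLG12Vgeo and Trp53lox/lox, and those of KO_CAF and KO_tumor also carried Saa3-/-. WT_CAF and NPF therefore differ in the genotype of the mouse as well as in the presence of a tumor, and these cannot be told apart.

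The depth of the libraries is unknown, and 10657 to 11670 genes per library reached 1 FPKM. Saa3, the deleted gene, was at 1.85, 1.16 and 0.434 FPKM in KO_CAF, 0.346, 0 and 0 FPKM in KO_tumor, 7.24, 892, 4278, 1182 and 2269.5 FPKM in WT_CAF and 4.10, 2.75, 106 and 3.13 FPKM in WT_tumor. NPF had 331, 5.32 and 3.13 FPKM. The library labelled WT_CAF 1 stood apart. Its 10 fibroblast markers averaged 4.83 on the log2(FPKM + 1) scale, against 5.64 to 8.77 in the other 10 fibroblast libraries, and summed to 893 FPKM against 3348 to 23697 FPKM. Epithelial markers averaged 0.297 to 4.25 in fibroblast libraries. Their sum was highest in the library labelled WT_CAF 1, at 627 FPKM, largely from Krt8 (252 FPKM), Krt18 (245 FPKM) and Krt19 (119 FPKM). Only 4 of its 10 epithelial markers reached 1 FPKM. Its epithelial mean was 2.82, below WT_CAF 5 at 4.25 and KO_CAF 1 at 3.39. Of the 10 fibroblast markers, 1 was listed at 0 in each of WT_CAF 2, 3 and 4 and KO_CAF 1, and 3 in KO_CAF 2. Tumor libraries had fibroblast means of 0.923 to 4.42, highest in WT_tumor 3, and epithelial means of 7.17 to 8.67 except in WT_tumor 4 at 5.14. Acinar markers were seen beside both cell types and averaged 5.40, 7.57 and 10.2 in NPF and 8.50, 7.41, 5.65 and 0.856 in WT_tumor. In bulk libraries, fewer cells of a type and less RNA per cell cannot be told apart. The description labels show no index for NPF and WT_CAF 1 and 2, a 6-base index for 8 libraries and a 16-base index for 5, and this form was a term in the fit.

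These serpins together made up more of the RNA of fibroblasts than of tumor cells. The FPKM of the 60 summed to 2477, 2026 and 2484 in NPF, to 798, 4315, 3831, 4209.7 and 2516 in WT_CAF and to 3356, 5579.5 and 3118 in KO_CAF. In tumor cells the sums were 343, 537, 598 and 638 in WT_tumor and 417, 336 and 330.3 in KO_tumor. For these sums every tumor library lay below every fibroblast library, and the nearest pair was WT_tumor 4 and the library labelled WT_CAF 1. The FPKM of all genes together differed between libraries, with 919859 in NPF 1 against 396646 to 627869 in the others. As a share of that total, the 60 made up 0.27% in NPF 1, against 0.45% and 0.48% in NPF 2 and 3. Of the 60, Serpinh1 was the most abundant in 6 libraries, Serpina3n in 3, Serpinf1 in 1 and Serpinb6a in the other 8, which include all 4 of WT_tumor. Of the 60 members, 28 stayed below 1 FPKM in every library, and 5 of those were listed at 0 throughout (Serpina1f, Serpinb13, Serpinb3a, Serpinb3c and Serpinb3d). A mean of 10 FPKM or more in at least 1 group was reached by 15 members. The filter of 1 FPKM in at least 3 libraries left 25 of the 60 for testing, 9 of clade A, 10 of clade B, 2 of clade I and 1 each of clades D, E, F and H.

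**Figure D1:**
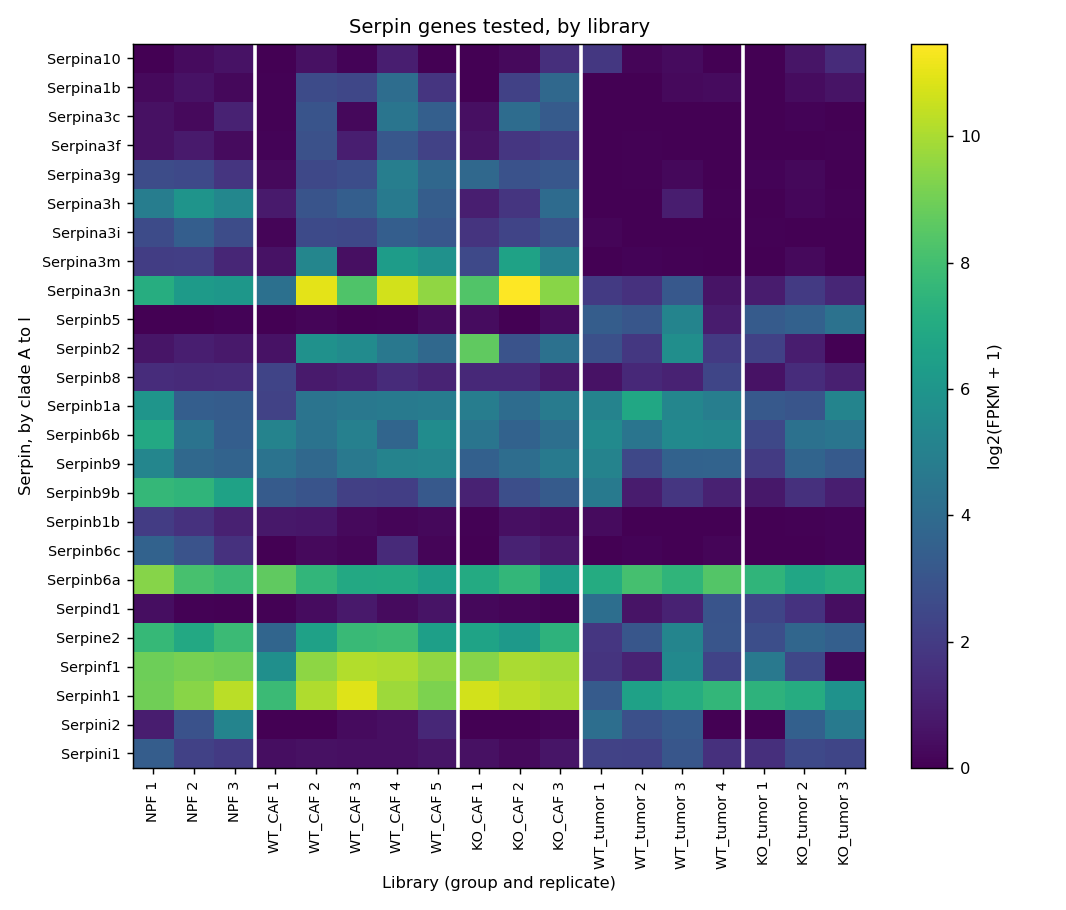
Levels of the 25 tested serpins as log2(FPKM + 1), by colour, with genes in rows by clade and the 18 libraries in columns by group, parted by white lines. Serpinh1 and Serpinf1 are bright across the fibroblast libraries and dimmer in WT_CAF 1, Serpinb5 is seen in tumor libraries, and Serpinb9b is brightest in NPF, where it stood at 95.5 to 197 FPKM.

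Differences below are on the log2(FPKM + 1) scale, adjusted for index form, with their standard errors, and a gene is called at a limma adjusted p under 0.05 over all 13369 genes tested. Between WT_tumor and WT_CAF, 2 serpins were higher and 9 lower of the 25 tested, where 9.05% of all genes tested were called higher and 12.5% lower. The median difference of the 25 was -0.82, against 0.07 for all genes tested. Between KO_tumor and KO_CAF, 2 were higher and 9 lower, where 13.0% and 15.4% of all genes were called. The median was -1.28, against 0.05. By library values alone, 3 serpins had every WT_tumor library above WT_CAF and 8 every one below, where 5.66% and 7.01% of genes did. Without the library labelled WT_CAF 1 these counts were 3 and 12, where 12.5% and 16.1% did. In KO_tumor against KO_CAF they were 3 and 11, where 20.6% and 21.3% did. Both fibroblast-to-tumor comparisons had more serpins called lower than these background shares give. The first of these comparisons shares its WT_CAF libraries with the comparison against NPF. No tumor library lacks an index, so with the index term the sizes of WT_tumor against WT_CAF rest on WT_CAF 3 to 5. Some serpins passed the filter through 1 cell type alone, so these counts describe the members tested and not the family. Clade A gave 6 of the 9 calls in the first comparison and 5 of the 9 in the second, and clades E, F and H together gave 3 in each.

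**Figure D2:**
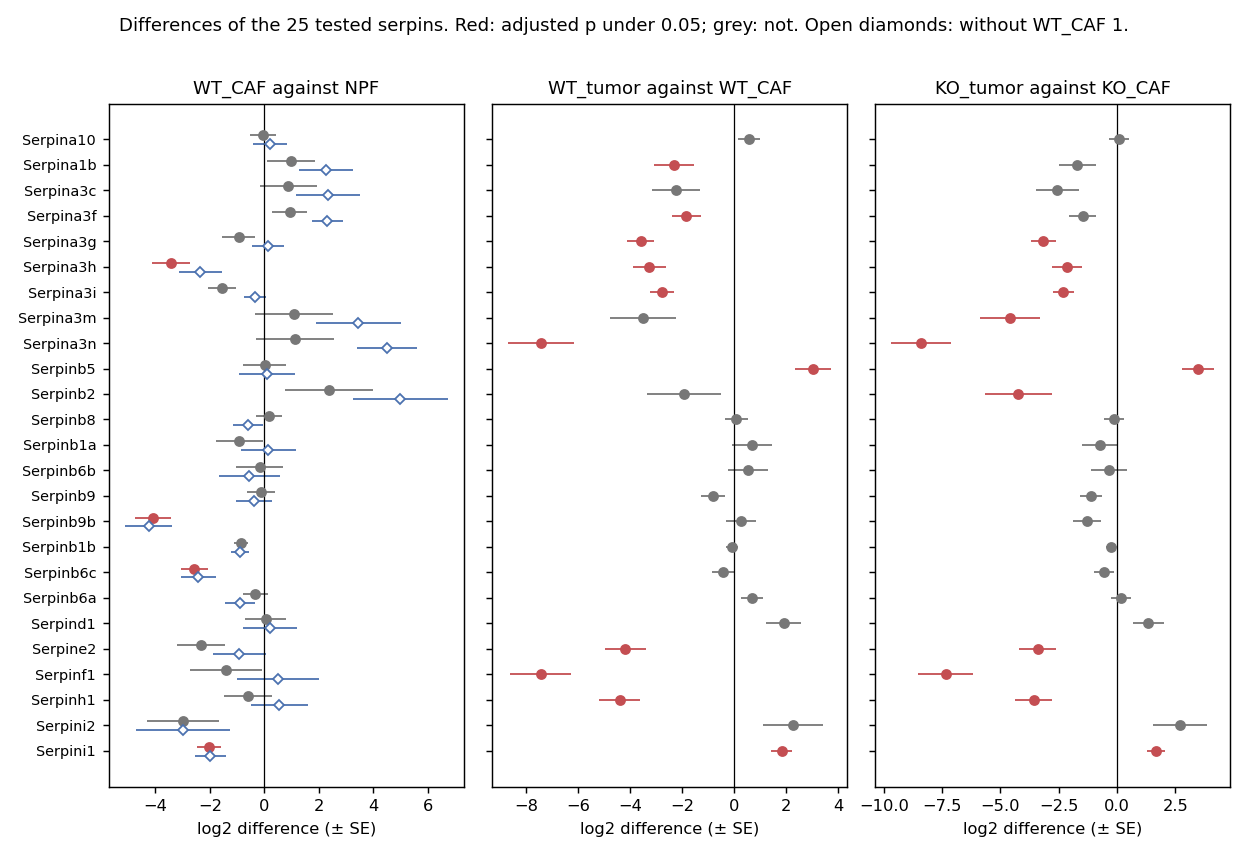
Differences on the log2(FPKM + 1) scale with standard errors (bars) of the 25 tested serpins in 3 comparisons, red where the adjusted p is under 0.05 and grey where not. Open diamonds, in the panel of WT_CAF against NPF only, are the fit without WT_CAF 1. Serpina3n and Serpinf1 lie farthest to the left in both tumor panels, Serpinb5 and Serpini1 are red to the right of 0 there, and in the panel of WT_CAF against NPF 4 points are red, all to the left.

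Between WT_CAF and NPF, 0 serpins were called higher and 4 lower of 25, where 0.277% and 0.673% of all genes tested were called. The 4 were Serpinb9b, Serpinb6c, Serpina3h and Serpini1. The calls turned on single libraries: 0 were lower without NPF 1 or without NPF 2, 1 without the library labelled WT_CAF 1 (where 0.758% of genes were called higher and 0.653% lower), 7 without WT_CAF 2, and 2 without WT_CAF 3, KO_CAF 2 or any 1 of the KO_tumor libraries. Without the library labelled WT_CAF 1 and without the index term, 4 were higher (Serpina1b, Serpina3f, Serpina3n and Serpinb2) and 4 lower, where 3.87% and 2.93% of genes were called. These 4 lower were Serpinb9b, Serpinb6c, Serpini1 and Serpinb1b, and Serpina3h was not called in that fit (limma adjusted p = 0.086). By library values alone, 0 serpins had every WT_CAF library above NPF and 5 had every one below, where 5.13% and 6.05% of genes did. Without the library labelled WT_CAF 1 these counts were 5 (Serpina1b, Serpina3f, Serpina3n, Serpinb2 and Serpinf1) and 6, where 11% and 10.2% of genes did.

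Serpinh1, also called HSP47, is a chaperone of procollagen in the endoplasmic reticulum and inhibits no protease. It stood at 498, 676 and 1246 FPKM in NPF, 222, 1096, 1890.4, 878 and 596 FPKM in WT_CAF and 1650.2, 1280.2 and 1056 FPKM in KO_CAF. Tumor cells had 8.90, 93.0, 134 and 190.1 FPKM in WT_tumor and 168, 134 and 56.8 FPKM in KO_tumor. Every tumor library was below every fibroblast library, with WT_tumor 4 closest to the library labelled WT_CAF 1. It fell by 4.40 ± 0.78 in WT_tumor against WT_CAF (limma adjusted p = 0.0020) and fell by 3.58 ± 0.80 in KO_tumor against KO_CAF (adjusted p = 0.0054). The mean in WT_CAF was 936 ± 625 FPKM (SD, n = 5), and in WT_tumor 107 ± 76.3 FPKM (SD, n = 4).

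Serpinf1, or PEDF, is a secreted glycoprotein known for blocking the growth of blood vessels, and it too inhibits no protease. Its values were 494, 556 and 502 FPKM in NPF, 51.5, 730.2, 1131, 1059 and 759 FPKM in WT_CAF and 668, 1033 and 925 FPKM in KO_CAF. WT_tumor had 2.25, 1.12, 41.8 and 3.93 FPKM and KO_tumor 24.0, 4.42 and 0.082 FPKM. Apart from the library labelled WT_CAF 1, fibroblasts held 494 FPKM or more, while WT_tumor 3, the tumor library richest in fibroblast markers, was the highest tumor library. Serpinf1 fell by 7.45 ± 1.16 in WT_tumor against WT_CAF (limma adjusted p = 9.9e-04) and fell by 7.35 ± 1.18 in KO_tumor against KO_CAF (adjusted p = 8.6e-04). Against NPF, WT_CAF showed -1.40 ± 1.32 (adjusted p = 0.63), and 0.50 ± 1.50 without the library labelled WT_CAF 1 (adjusted p = 0.95). That difference was not called in either fit and its sign turned on 1 library.

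Serpine2, or protease nexin 1, inhibits thrombin and plasminogen activators at the cell surface. It was at 202, 119 and 226 FPKM in NPF, 12.2, 93.1, 214, 229 and 87.1 FPKM in WT_CAF and 98.2, 71.4 and 168 FPKM in KO_CAF. Tumor cells had 2.52, 7.40, 35.7 and 7.21 FPKM in WT_tumor and 5.85, 12.8 and 10.1 FPKM in KO_tumor. Only the library labelled WT_CAF 1 entered the tumor range. Serpine2 fell by 4.19 ± 0.78 in WT_tumor against WT_CAF (limma adjusted p = 0.0025) and fell by 3.40 ± 0.79 in KO_tumor against KO_CAF (adjusted p = 0.0068). In WT_CAF against NPF it gave -2.33 ± 0.89 (adjusted p = 0.21), with -0.91 without the library labelled WT_CAF 1 and -3.75 without WT_CAF 2, where it was called (adjusted p = 0.028).

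Serpinb2, or PAI-2, is a plasminogen activator inhibitor that stays largely inside the cell and is known from macrophages. It was at 0.574, 0.956 and 0.729 FPKM in NPF, 0.459, 55, 45.1, 23.3 and 13.6 FPKM in WT_CAF and 405, 6.58 and 18.4 FPKM in KO_CAF. WT_tumor had 6.01, 2.60, 49.0 and 2.88 FPKM and KO_tumor 3.68, 0.909 and 0 FPKM. The library KO_CAF 1 was far above all others. It also had the highest macrophage marker mean (3.39, over 9 of the list's genes found) and the highest granulocyte and mast cell mean (2.40) of the 18 libraries. KO_tumor 1 had means of 3.06 and 2.34 for these lists, with Serpinb2 at 3.68 FPKM. The part of such cells in these values was not tested. The NPF libraries were all below 1 FPKM, and so was the library labelled WT_CAF 1, while the other 4 of WT_CAF were at 13.6 FPKM or more. The difference of WT_CAF from NPF was 2.37 ± 1.62 (adjusted p = 0.48), and without that library and without the index term 4.15 ± 1.12 (adjusted p = 0.038). Serpinb2 fell by 4.24 ± 1.44 in KO_tumor against KO_CAF (limma adjusted p = 0.042). Without KO_CAF 1 this was -2.58 (adjusted p = 0.17), and the call was lost without any 1 of 11 of the 18 libraries. In WT_tumor against WT_CAF it gave -1.94 ± 1.42 (adjusted p = 0.34). Of its 50-base windows, 10.4% also occur in another serpin transcript.

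**Figure D3:**
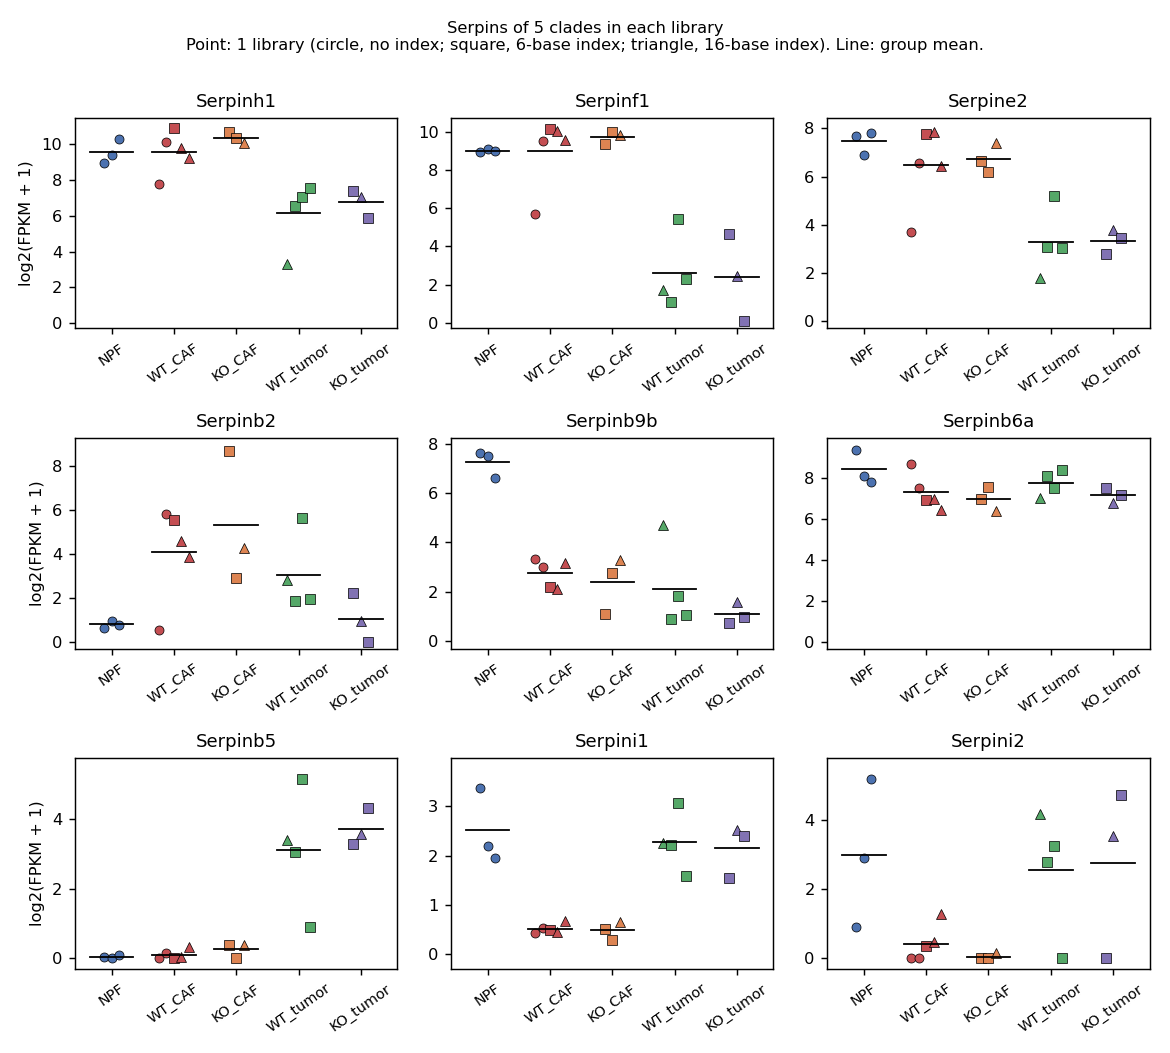
Levels as log2(FPKM + 1) of 9 serpins of 5 clades in the 5 groups, 1 point per library, with the group mean as a line and the index form as the shape of the point. The NPF points of Serpinb9b lie above those of the other groups, and the lowest WT_CAF point is WT_CAF 1 for Serpinf1 (51.5 FPKM), Serpinh1 (222 FPKM) and Serpine2 (12.2 FPKM).

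The Serpina3 genes are a mouse expansion of a single human gene, the acute-phase inhibitor alpha-1-antichymotrypsin. In the RefSeq map 23 of the 24 clade A members lie together on chromosome 12, and 9 of those passed the filter. The loop sets which protease a serpin can trap, and it differs between the copies. Below, each sequence gives the 28 codons before a conserved element of 4 codons that follows the loop, with the element in capitals. They were read from GENCODE M21 transcripts (GRCm38), 5′ to 3′, for the members whose levels are described next.
Serpina3c: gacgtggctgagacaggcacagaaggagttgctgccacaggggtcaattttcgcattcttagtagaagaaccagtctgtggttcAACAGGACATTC
Serpina3f: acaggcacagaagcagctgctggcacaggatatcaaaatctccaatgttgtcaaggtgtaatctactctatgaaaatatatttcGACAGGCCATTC
Serpina3g: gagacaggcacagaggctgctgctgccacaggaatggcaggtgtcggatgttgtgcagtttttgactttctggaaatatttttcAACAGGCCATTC
Serpina3h: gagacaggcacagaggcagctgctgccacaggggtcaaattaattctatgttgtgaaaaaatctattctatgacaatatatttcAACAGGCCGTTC
Serpina3i: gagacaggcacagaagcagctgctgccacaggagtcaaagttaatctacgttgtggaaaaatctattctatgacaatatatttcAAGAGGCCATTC
Serpina3m: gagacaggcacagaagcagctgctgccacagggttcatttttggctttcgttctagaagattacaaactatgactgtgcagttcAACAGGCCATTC
Serpina3n: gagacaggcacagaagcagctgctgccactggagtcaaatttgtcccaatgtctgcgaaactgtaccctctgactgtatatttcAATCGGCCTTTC

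Serpina3h and Serpina3i were 92.9% identical over this stretch, Serpina3m and Serpina3n 71.8%, and Serpina3c and Serpina3g 55.8%. RefSeq lists Serpina3h as a transcribed pseudogene. Of 50-base windows of the transcripts, 21.9% of Serpina3h, 19.1% of Serpina3m, 15% of Serpina3g, 12.5% of Serpina3i and 6.75% of Serpina3n also occur in another serpin. Reads in such windows cannot be assigned to 1 gene by sequence, so the values of the copies are uncertain to that extent.

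Serpina3n, an acute-phase inhibitor known to block granzyme B and leukocyte elastase, was the most abundant copy. It stood at 139, 74.1 and 66.6 FPKM in NPF, 17.7, 2019, 317, 1621 and 750.0 FPKM in WT_CAF and 322, 2815 and 694 FPKM in KO_CAF. WT_tumor had 2.91, 2.12, 7.80 and 0.512 FPKM and KO_tumor 0.806, 2.81 and 1.38 FPKM. Tumor cells lay below all fibroblasts, and 4 of the 5 WT_CAF libraries were above all of NPF, with the library labelled WT_CAF 1 below them. Serpina3n fell by 7.43 ± 1.26 in WT_tumor against WT_CAF (limma adjusted p = 0.0015) and fell by 8.40 ± 1.28 in KO_tumor against KO_CAF (adjusted p = 6.6e-04). The means were 945 ± 852 FPKM in WT_CAF (SD, n = 5) and 3.33 ± 3.14 FPKM in WT_tumor (SD, n = 4). In WT_CAF against NPF it gave 1.12 ± 1.44 (adjusted p = 0.74). Without the library labelled WT_CAF 1 it gave 4.50 ± 1.10 (adjusted p = 0.067), a size that rests on WT_CAF 2 against NPF, and without that library and without the index term 3.40 ± 0.75 (adjusted p = 0.012).

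Serpina3m and Serpina3c, whose protease targets are less well defined, varied widely between libraries. Serpina3m was at 3.20, 3.38 and 1.38 FPKM in NPF, 0.456, 37.7, 0.398, 79.3 and 54.3 FPKM in WT_CAF and 4.74, 95.9 and 31.0 FPKM in KO_CAF, and at most 0.217 FPKM in tumor cells. Serpina3c was at 0.447, 0.231 and 1.11 FPKM in NPF, 0.043, 6.86, 0.198, 21.0 and 10.1 FPKM in WT_CAF and 0.371, 15.4 and 8.74 FPKM in KO_CAF. Both were low in WT_CAF 3 and in the library labelled WT_CAF 1, and Serpina3c also in KO_CAF 1. Serpina3m fell by 4.60 ± 1.30 in KO_tumor against KO_CAF (limma adjusted p = 0.018), a call lost without KO_CAF 2 or KO_tumor 2. In WT_tumor against WT_CAF it gave -3.51 ± 1.28 (adjusted p = 0.064), and it was called without the library labelled WT_CAF 1 (adjusted p = 0.030), without WT_CAF 2 and without WT_CAF 3, where it was -5.84. In WT_CAF against NPF it gave 1.09 ± 1.45 (adjusted p = 0.75), and 3.46 ± 1.56 without that library (adjusted p = 0.36).

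Serpina3g, known as Spi2A, inhibits lysosomal cathepsins in the cytosol. Its levels were 5.33, 4.78 and 2.43 FPKM in NPF, 0.225, 4.52, 5.60, 29.0 and 13.2 FPKM in WT_CAF and 13.7, 6.35 and 7.75 FPKM in KO_CAF, with at most 0.191 FPKM in tumor cells. Serpina3i stood at 5.09, 9.85 and 5.41 FPKM in NPF, 0.114, 4.92, 4.54, 9.66 and 7.58 FPKM in WT_CAF and 2.29, 4.09 and 6.63 FPKM in KO_CAF. Serpina3f stood at 0.413, 0.748 and 0.272 FPKM in NPF, 0.068, 6.28, 0.956, 7.65 and 3.79 FPKM in WT_CAF and 0.513, 2.50 and 3.43 FPKM in KO_CAF. All 3 were near 0 in tumor cells and in the library labelled WT_CAF 1. In WT_tumor against WT_CAF, Serpina3g fell by 3.60 ± 0.52 (limma adjusted p = 7.4e-04), Serpina3i fell by 2.77 ± 0.46 (adjusted p = 0.0013) and Serpina3f fell by 1.83 ± 0.57 (adjusted p = 0.034). The call of Serpina3f was lost without WT_CAF 4 or 5, WT_tumor 1 or 3, or KO_tumor 2. In KO_tumor against KO_CAF, Serpina3g fell by 3.17 ± 0.53 (adjusted p = 0.0010) and Serpina3i fell by 2.30 ± 0.46 (adjusted p = 0.0030).

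Serpina3h was higher in every NPF library than in any library of the other groups. It stood at 27.8, 59.1 and 38.0 FPKM in NPF, 0.801, 6.97, 9.87, 24.8 and 9.28 FPKM in WT_CAF and 0.931, 2.43 and 14.9 FPKM in KO_CAF. In tumor cells its highest value was 0.913 FPKM, in WT_tumor 3. Serpina3h fell by 3.43 ± 0.71 in WT_CAF against NPF (limma adjusted p = 0.038), and its adjusted p was 0.20 without the library labelled WT_CAF 1 and 0.10 without the index term. Left-out libraries gave -4.50 to -2.35, and the call was lost without any 1 of 10 of the 18 libraries. Serpina3h also fell by 3.26 ± 0.63 in WT_tumor against WT_CAF (adjusted p = 0.0031) and fell by 2.15 ± 0.64 in KO_tumor against KO_CAF (adjusted p = 0.023). The second of these was -1.31 and not called without KO_CAF 3, and the call was also lost without KO_CAF 2, KO_tumor 1 or KO_tumor 2.

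**Figure D4:**
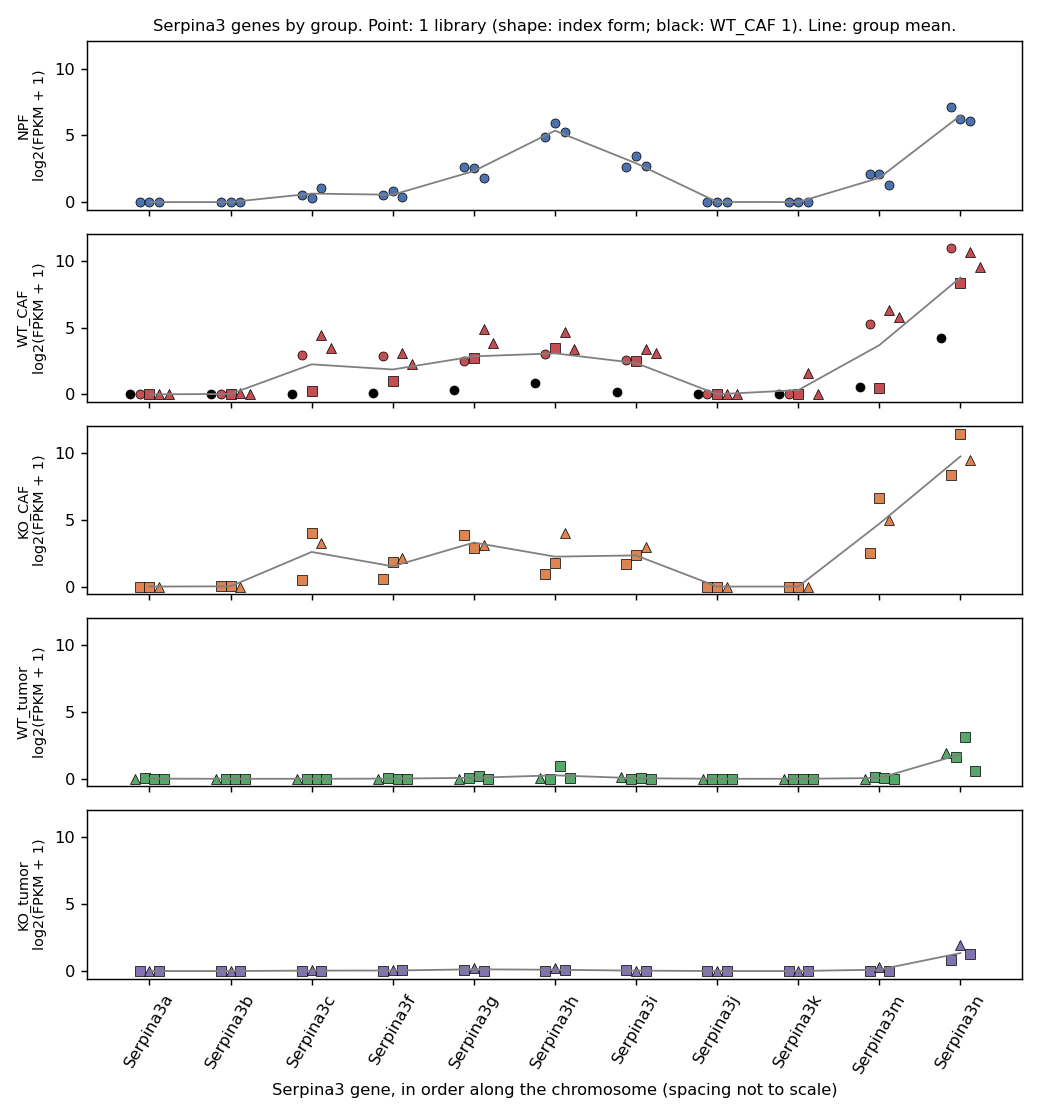
Levels as log2(FPKM + 1) of the Serpina3 genes in their order along the chromosome, 1 panel per group and 1 point per library, with a line through the group means and WT_CAF 1 in black. Serpina3n is the highest copy in both groups of cancer-associated fibroblasts, with 17.7 to 2815 FPKM among all fibroblast libraries and 7.80 FPKM or less in tumor libraries, and Serpina3h is higher in NPF than in the other groups.

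Several of these copies were low together in tumor cells, and promoters of some of them are shown for the 250 bases before the RefSeq start (GRCm38.p6, plus strand, 5′ to 3′). Capitals mark TTCNNNGAA, a spaced palindrome bound by STAT factors that reads the same on both strands, and TATAAA, the TATA box, on either strand (TTTATA on the strand shown). The STAT letters occur in 7.02% of the 32851 RefSeq promoters of this length and in 8 of the 52 serpins that have an entry, and TATAAA in 12.4% and in 14. The percentages count promoter entries, while the serpin counts are of genes with a match in any of their entries. The percentages and the counts can therefore not be compared directly. The 2 motifs share no stretch in the sequences shown. Serpina3f, Serpina3g and Serpina3i hold the STAT letters. Serpina3n does not, and neither does Serpina3c, whose promoter is not shown, which says only that these letters are not in this window. Promoters of Serpina3h and Serpina3m are not shown either.
Serpina3n, chr12:104406458-104406707: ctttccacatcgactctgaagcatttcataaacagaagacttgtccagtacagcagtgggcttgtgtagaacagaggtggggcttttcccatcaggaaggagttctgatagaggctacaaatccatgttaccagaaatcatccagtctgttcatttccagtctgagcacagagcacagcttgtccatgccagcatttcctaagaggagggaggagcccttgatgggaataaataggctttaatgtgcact
Serpina3f, chr12:104214294-104214543: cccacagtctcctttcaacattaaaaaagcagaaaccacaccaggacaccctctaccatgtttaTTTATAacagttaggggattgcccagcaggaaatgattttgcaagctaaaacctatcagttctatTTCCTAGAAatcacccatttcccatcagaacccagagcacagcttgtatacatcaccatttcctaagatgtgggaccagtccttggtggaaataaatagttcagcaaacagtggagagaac
Serpina3g, chr12:104235897-104236146: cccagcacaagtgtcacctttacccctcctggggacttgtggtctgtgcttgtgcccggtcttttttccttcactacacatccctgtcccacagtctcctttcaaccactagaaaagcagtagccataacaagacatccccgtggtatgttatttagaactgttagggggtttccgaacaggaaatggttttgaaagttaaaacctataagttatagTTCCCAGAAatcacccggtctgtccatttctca
Serpina3i, chr12:104262872-104263121: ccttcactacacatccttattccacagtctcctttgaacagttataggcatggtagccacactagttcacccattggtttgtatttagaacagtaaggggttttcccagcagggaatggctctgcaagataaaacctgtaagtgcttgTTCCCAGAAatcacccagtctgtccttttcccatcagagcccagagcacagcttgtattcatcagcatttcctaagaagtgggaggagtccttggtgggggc

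The STAT match lies at -33 from the start in Serpina3g, at -102 in Serpina3i, and at -121 in the Serpina3f entry shown. The TATA letters marked in that Serpina3f entry lie at -186, on the other strand, and whether they act as a TATA box was not tested. The promoters of Serpina3n and Serpina3i were 63.1% identical and those of Serpina3n and Serpina3g 47.7%.

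Serpina1b is 1 of the mouse genes for alpha-1-antitrypsin, the plasma inhibitor of neutrophil elastase. It was at 0.205, 0.452 and 0.189 FPKM in NPF, 0.040, 5.21, 4.49, 16.1 and 2.41 FPKM in WT_CAF and 0, 3.71 and 13.6 FPKM in KO_CAF, and at most 0.513 FPKM in tumor cells. It fell by 2.31 ± 0.77 in WT_tumor against WT_CAF (limma adjusted p = 0.047), a call lost without any 1 of 13 of the 18 libraries. Of its 50-base windows 28.2% also occur in another serpin, and the other genes of this plasma inhibitor were low, with Serpina1d the highest at 3.78 FPKM in WT_CAF 4. The plasma inhibitors of clades C and F, Serpinc1 (antithrombin) and Serpinf2 (alpha-2-antiplasmin), stayed at or below 0.303 and 0.699 FPKM.

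Clade B serpins act mostly inside cells. Of the 10 tested, 0 were called lower in WT_tumor against WT_CAF and 1, Serpinb2, in KO_tumor against KO_CAF, and Serpinb5 was called higher in both. Serpinb6a, an inhibitor of cathepsin G and related proteases, was high in all groups. It stood at 656, 277 and 221 FPKM in NPF, 405, 184, 121, 125 and 86.2 FPKM in WT_CAF and 127, 189 and 83.3 FPKM in KO_CAF. It stood at 130.3, 270.2, 180.0 and 338 FPKM in WT_tumor and 182, 109 and 142 FPKM in KO_tumor. Its tumor and fibroblast values overlapped, and the library labelled WT_CAF 1 was the highest of WT_CAF. Serpinb6a was called in no comparison between groups. Serpinb6b, a close relative, ran from 9.58 to 119.9 FPKM within NPF alone, and from 4.53 to 44.3 FPKM in tumor cells. Serpinb6c, a further copy, reached 11.2, 6.56 and 2.12 FPKM in NPF against 0, 0.239, 0.128, 1.57 and 0.127 FPKM in WT_CAF. All WT_CAF values were below all NPF values. Serpinb6c fell by 2.57 ± 0.49 in WT_CAF against NPF (limma adjusted p = 0.024), and it gave -2.42 ± 0.63 without the library labelled WT_CAF 1 (adjusted p = 0.091). Without that library and the index term it gave -2.22 ± 0.40 (adjusted p = 0.0034), and the call was also lost without NPF 1 or NPF 2.

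Serpinb9 is the cell's own inhibitor of granzyme B, and Serpinb9b is its neighbour in the clade B group on chromosome 13. The stretches before the conserved element were 61.3% identical and are given as above, with the element in capitals.
Serpinb9: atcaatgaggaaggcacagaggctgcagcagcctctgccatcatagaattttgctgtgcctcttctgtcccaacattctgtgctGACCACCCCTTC
Serpinb9b: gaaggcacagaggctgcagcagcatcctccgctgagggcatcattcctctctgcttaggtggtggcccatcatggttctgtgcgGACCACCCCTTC

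Under 1% of the 50-base windows of either occur in another serpin (0.378% and 0.388%). In NPF Serpinb9b reached 197, 179 and 95.5 FPKM, and in WT_CAF 8.92, 6.95, 3.54, 3.36 and 8.10 FPKM. It was at 1.15, 5.77 and 8.80 FPKM in KO_CAF, 24.9, 0.846, 2.51 and 1.10 FPKM in WT_tumor and 0.673, 2.03 and 0.954 FPKM in KO_tumor. NPF, with a mean of 157 ± 54.2 FPKM (SD, n = 3), stood above every library of the other groups, and the WT_CAF mean was 6.17 ± 2.58 FPKM (SD, n = 5). Serpinb9b fell by 4.09 ± 0.67 in WT_CAF against NPF (limma adjusted p = 0.010), and fell by 4.25 ± 0.87 with adjusted p = 0.032 without the library labelled WT_CAF 1, where no other member was called. Its call was lost without NPF 1 or NPF 2 (adjusted p up to 0.079). Serpinb9 itself stood at 36.9, 13.5 and 11.6 FPKM in NPF, 19.7, 13.7, 24.0, 34.4 and 36.3 FPKM in WT_CAF and 10.3, 15.9 and 25.2 FPKM in KO_CAF. It was at 34.2, 4.66, 11.1 and 11.5 FPKM in WT_tumor and 2.98, 11.8 and 8.54 FPKM in KO_tumor, and these ranges overlapped. It gave -1.12 ± 0.47 in KO_tumor against KO_CAF (adjusted p = 0.086, and 0.048 without NPF 1). With a 16-base index Serpinb9b was higher by 1.56 ± 0.44 (adjusted p = 0.024) and Serpinb9 by 1.13 ± 0.34 (adjusted p = 0.035) than with a 6-base index. In that contrast limma called these 2 higher and 0 lower of the 25, with 5 at an unadjusted p under 0.05, where 6.66% and 11.2% of all genes were called and 30.8% were at that unadjusted p. Without WT_tumor 1 or KO_CAF 3 neither was called, Serpinb9b stood at 0.86 without WT_tumor 1, and Serpinb9 was also not called without KO_CAF 1, KO_tumor 1 or KO_tumor 2.

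Serpinb1a inhibits the proteases of neutrophil granules. It was at 61.4, 9.85 and 9.01 FPKM in NPF, 3.79, 20.0, 23.0, 24.8 and 27.2 FPKM in WT_CAF and 27.6, 15.5 and 26.1 FPKM in KO_CAF. WT_tumor had 33.6, 113, 36.8 and 28.9 FPKM and KO_tumor 8.31, 7.02 and 35.4 FPKM. In tumor cells KO_tumor 3 overlapped with WT_tumor, while KO_tumor 1 and 2 lay below it. Serpinb5, or maspin, is an epithelial protein that inhibits no protease. It was at most 0.299 FPKM in any fibroblast library, and stood at 9.49, 7.36, 34.5 and 0.850 FPKM in WT_tumor and 8.72, 10.9 and 19 FPKM in KO_tumor. Every tumor library was above every fibroblast library, and the lowest of them was WT_tumor 4, whose epithelial markers were also the lowest of the tumor libraries. The part of that in its value was not tested. The means were 13.0 ± 14.8 FPKM in WT_tumor (SD, n = 4) and 0.083 ± 0.109 FPKM in WT_CAF (SD, n = 5). Serpinb5 was higher by 3.04 ± 0.69 in WT_tumor against WT_CAF (limma adjusted p = 0.0075, and 0.055 without WT_CAF 3) and by 3.47 ± 0.70 in KO_tumor against KO_CAF (adjusted p = 0.0031).

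Serpini1, or neuroserpin, inhibits tissue plasminogen activator and is best known from neurons. It was at 9.41, 3.59 and 2.87 FPKM in NPF, 0.341, 0.448, 0.394, 0.373 and 0.592 FPKM in WT_CAF and 0.427, 0.210 and 0.568 FPKM in KO_CAF. WT_tumor had 3.76, 3.66, 7.41 and 1.99 FPKM and KO_tumor 1.90, 4.70 and 4.30 FPKM. All cancer-associated fibroblasts were below all normal fibroblasts and all tumor libraries. Serpini1 fell by 2.03 ± 0.45 in WT_CAF against NPF (limma adjusted p = 0.049). Without the library labelled WT_CAF 1 it gave -1.98 ± 0.58 (adjusted p = 0.13), and without that library and the index term -1.98 ± 0.37 (adjusted p = 0.0045). The call was lost without any 1 of 14 of the 18 libraries, with -2.31 to -1.60. It was higher by 1.83 ± 0.39 in WT_tumor against WT_CAF (adjusted p = 0.0056) and by 1.67 ± 0.40 in KO_tumor against KO_CAF (adjusted p = 0.0077).

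Serpini2, or pancpin, is a serpin known from the exocrine pancreas. It was at 0.862, 6.38 and 35.4 FPKM in NPF, 0, 0, 0.278, 0.398 and 1.42 FPKM in WT_CAF and 0, 0 and 0.115 FPKM in KO_CAF. In tumor cells it was at 16.8, 5.86, 8.54 and 0 FPKM in WT_tumor and 0, 10.6 and 25.4 FPKM in KO_tumor. The acinar marker means of those libraries were 8.50, 7.41, 5.65 and 0.856 and 0.558, 8.12 and 9.26, so the libraries listed at 0 for Serpini2 were those with the lowest acinar means, and in NPF both were highest in NPF 3. The part of acinar RNA in the level of Serpini2 was not tested. Serpini2 gave -2.99 ± 1.31 in WT_CAF against NPF (adjusted p = 0.27) and 2.70 ± 1.17 in KO_tumor against KO_CAF (adjusted p = 0.099). The latter was 3.98 and called without KO_tumor 1 (adjusted p = 0.028), and 1.47 without KO_tumor 3.

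The comparisons of mice with and without Saa3 asked whether loss of Saa3 moves serpins in either cell type. In KO_CAF against WT_CAF limma called 0 of 25 serpins, with 0 at an unadjusted p under 0.05, where 0.00748% of all genes tested were called and 0.935% were at that unadjusted p. In KO_tumor against WT_tumor it also called 0, with 1 at an unadjusted p under 0.05 (Serpinb1a, -1.69 ± 0.72), where 0.0% of all genes were called and 3.95% were at that unadjusted p, about the share of the serpins. The difference between the 2 knockout effects was called for 0 serpins, with 0 at an unadjusted p under 0.05, where 0.0% of all genes were called and 1.38% were at that unadjusted p. In both knockout comparisons 0 of all genes tested were called lower, so Saa3 itself, the deleted gene, was not called. The 0 calls of serpins therefore do not show that loss of Saa3 leaves them unmoved. The medians of the 25 differences were -0.09 in fibroblasts and -0.08 in tumor cells, against -0.01 and -0.02 for all genes tested. Among serpins averaging at least 10 FPKM in 1 of the groups, uncalled differences of 1 or more (adjusted p = 1 for all) were -1.34 ± 0.66 for Serpina3h and 1.01 ± 1.33 for Serpina3m in fibroblasts. In tumor cells Serpinb6b gave -1.47 ± 0.72 and Serpinb2 -1.94 ± 1.35. Serpinb6b was the only tested member whose KO_tumor libraries, at 4.53, 18.5 and 20.9 FPKM, were all below WT_tumor, at 44.3, 21.2, 42.9 and 38.5 FPKM. Over all genes 1.36% had every KO_tumor library above and 2.25% every one below. In KO_CAF against WT_CAF 0 of the 25 tested serpins had every library above or below, where 0.464% and 0.733% of genes did.

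The genes that serpins meet were read from 3 lists. Beside their counts, of all genes tested 9.05% were called higher and 12.5% lower in WT_tumor against WT_CAF, 13.0% and 15.4% in KO_tumor against KO_CAF, and 0.277% and 0.673% in WT_CAF against NPF. Of 34 serine proteases 18 were tested. In WT_tumor against WT_CAF 3 were higher, the epithelial proteases St14 (matriptase) and Tmprss2 and the anticoagulant protease Proc, and 4 lower (Fap, Htra1, Plat and Prtn3). Plat, tissue plasminogen activator and the target of Serpini1, fell by 1.59 ± 0.52 (limma adjusted p = 0.044), from 379 ± 189.9 FPKM in WT_CAF to 144 ± 60.4 FPKM in WT_tumor (SD, n = 5 and 4). Its value in the library labelled WT_CAF 1, 74.8 FPKM, lay within the WT_tumor range of 65.6 to 199 FPKM. Calls of single genes in these lists were not examined with libraries left out. In KO_tumor against KO_CAF 6 were higher and 4 lower, and in WT_CAF against NPF 1 was lower (Klk8). Of 16 receptors and cofactors 15 were tested, and 2 were higher (Anxa2 and F2rl1) and 3 lower (Lrp1, Thbd and Vtn) in WT_tumor against WT_CAF. Lrp1, the receptor that clears serpin-protease complexes, fell by 4.24 ± 0.52 (adjusted p = 3.1e-04), from 156 ± 90.8 FPKM to 15 ± 7.90 FPKM. In KO_tumor against KO_CAF 4 were higher and 3 lower. Of 29 other inhibitors of serine proteases 19 were tested, with 4 higher (Spint1, Spint2, Spink4 and Wfdc18) and 8 lower (A2m, Itih3, Itih5, Serping1, Slpi, Tfpi, Tfpi2 and Wfdc1) in WT_tumor against WT_CAF, and 5 higher and 7 lower in KO_tumor against KO_CAF. Spint2, a membrane-bound inhibitor of epithelial proteases, was higher by 4.43 ± 0.94 (adjusted p = 0.0050). In both knockout comparisons 0 genes of the 3 lists were called.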

How the data were processed

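The authors deposited 1 table of FPKM values for 23951 gene symbols and 18 libraries of poly(A) RNA (TruSeq kit, HiSeq2000, per the labels' protocols). The submitters' processing notes name Cuffnorm, Cufflinks 2.2.1, TopHat2 2.0.10, SAMtools 0.1.19, Bowtie 1.0.0 and the builds mm9, GRCh37 and hg19, with no order. The gene annotation was not given in the sources used here. No counts were used, so depth is unknown, and low values have unknown precision. An FPKM of exactly 0 can be a failed estimate.

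The 13369 genes that reached 1 FPKM in 3 or more libraries were tested on log2(FPKM + 1), which understates changes of low genes, with limma 3.58.1 in R 4.3.3 (empirical Bayes with a trend). Group and index form were the terms of 1 fit over the 18 libraries. Tests were two-sided, with Benjamini-Hochberg adjustment over all genes tested and calls at adjusted p under 0.05. The index form is what the description labels show, and it is partly confounded with the groups. With it in the fit, the size of WT_CAF against NPF rests on WT_CAF 1 and 2. The sizes of KO_CAF against WT_CAF and of WT_tumor against WT_CAF rest on WT_CAF 3 to 5. The WT_CAF means printed beside such differences are of all its libraries.

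Groups came from the treatment labels. The series text calls the replicates biological, and no source used here says which samples shared an animal. Members named with values averaged at least 10 FPKM in a group or were called in a comparison. Serpina3c meets neither condition and was added beside its neighbours after its values were seen. A difference between 2 groups was given if called, or if it was at least 1 and 1 of its groups averaged at least 10 FPKM. The members and lists were chosen with earlier results of these data known. 1 of the 61 members is not reported here. The other 60 matched RefSeq gene entries and 52 a RefSeq promoter (GRCm38.p6). Loop-coding stretches came from GENCODE M21 transcripts, and no coordinates were converted between builds. The fit was tested on simulated data for WT_tumor against WT_CAF only, with a ceiling on the spread of each gene and no index effect. That gives no check of the other comparisons or of genes with a wider spread. Alternatives were a pseudocount of 0.1 FPKM, no filter, a filter of 5 FPKM, upper-quartile scaling, no index term, only the groups compared, listed zeros set to missing and leaving out libraries.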

Additional observations from a re-analysis of the deposited data

Results flagged for a closer look

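In groups of 4 or 5 libraries, 5 of 40 groups examined over the 20 named serpins held 1 library with an unusually large gap to the rest. For independent, normally distributed values without ties, chance gives such a gap in about 1 group in 20. These groups reuse the same libraries and hold listed zeros, so that rate gives no test of the 5. The library labelled WT_CAF 1 accounts for 2 of them: Serpinf1 stood at 51.5 FPKM there against 730.2 to 1131 FPKM in the other 4 WT_CAF libraries, and Serpinb1a at 3.79 FPKM against 20.0 to 27.2 FPKM. Serpinb6c stood at 1.57 FPKM in WT_CAF 4, against 0 to 0.239 FPKM in the others of its group. Serpina3h stood at 0.913 FPKM in WT_tumor 3, against 0 to 0.049 FPKM. Serpina3f stood at 0.035 FPKM in WT_tumor 2 and was listed at 0 in the other 3 of WT_tumor.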

How the results depend on the processing

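No paired analysis was possible because the labels carry no replicate numbers. The 0 calls of both knockout comparisons and of their difference held under every alternative run. In the main fit the deleted gene Saa3 was not called in either comparison, so these 0 calls do not show that serpins are unmoved. In WT_CAF against NPF, the 4 calls lower became 2 with a pseudocount of 0.1 FPKM, 2 with the filter of 5 FPKM, 0 with only those groups in the fit, 1 without WT_CAF 1 and WT_tumor 4, and 1 without the 5 libraries with a 16-base index. They ran from 0 to 7 when 1 library was left out, with 0 to 0 higher, and 4 were higher without WT_CAF 1 and without the index term. In WT_tumor against WT_CAF, the 2 calls higher became 1 with the filter of 5 FPKM, 1 with only those groups and 0 without the 16-base libraries, where 0 were lower and WT_CAF 3 stood alone with an index. With 1 library left out they ran from 1 (without WT_CAF 3) to 3 higher and from 7 to 10 lower. In KO_tumor against KO_CAF, the 2 calls higher became 4 with no filter, 1 with the filter of 5 FPKM and 0 without the 16-base libraries, where 4 were lower, and with 1 library left out they ran from 2 to 3 higher and from 6 to 11 lower. For the index contrast, 1 was higher with no filter, and leaving out 1 library gave 0 to 3 higher (0 without KO_CAF 3 or WT_tumor 1, 1 without KO_CAF 1 or KO_tumor 1) and 0 to 0 lower. The causes were not tested.

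Signs turned for uncalled differences, whose range over fits with 1 library left out is given. In WT_CAF against NPF, Serpina3m ran from -1.28 to 3.46, Serpina3n from -2.26 to 4.50, Serpinb2 from -0.26 to 5.0 and Serpinf1 from -3.30 to 0.50, each lowest without WT_CAF 2 and highest without WT_CAF 1. The values without WT_CAF 1 were the same with WT_tumor 4 also left out, and Serpinf1 gave 0.80 with WT_CAF 1 and the index term left out. In KO_CAF against WT_CAF, Serpina3m ran from -1.21 (without WT_CAF 3) to 1.80, with the sign turned also without KO_CAF 2, and its difference between the knockout effects ran from -1.87 to 1.24 (without WT_CAF 3). Over the 51 named differences, leaving out 1 library left 833 values on the same side, 72 lost and 6 gained a call, and 7 turned sign. The other alternatives left 431 on the same side, with 43 lost, 6 gained and 2 turned. Leaving out the 16-base libraries and the 2 libraries together, and the index contrast itself, were chosen after seeing the data.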

Other observations

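The Serpinb9 copies c to g, close relatives of the granzyme B inhibitor Serpinb9 on chromosome 13, were each highest in the library labelled WT_CAF 1. There Serpinb9g stood at 7.99 FPKM, Serpinb9e at 3.44 FPKM, Serpinb9f at 2.98 FPKM, Serpinb9c at 1.27 FPKM and Serpinb9d at 0.415 FPKM. In NPF Serpinb9g was at 0.317, 0.287 and 0.306 FPKM and Serpinb9e at 0.400, 0.280 and 0.348 FPKM, while both were listed at 0 in all 3 of KO_CAF. None of the 5 passed the filter. Of their 50-base windows 52.8% of Serpinb9f, 44.5% of Serpinb9g, 30.8% of Serpinb9d and 28.4% of Serpinb9e occur in another serpin, so reads cannot be assigned to 1 copy there.

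Serpind1, or heparin cofactor II, a plasma inhibitor of thrombin, did not reach 1 FPKM in any fibroblast library. It stood at 16.4, 0.531, 1.16 and 6.93 FPKM in WT_tumor and at 4.29, 2.2 and 0.343 FPKM in KO_tumor, values that overlap with fibroblasts at the low end, and gave 1.90 ± 0.67 in WT_tumor against WT_CAF (limma adjusted p = 0.056). Serpinb1b, a close relative of Serpinb1a, reached 3.05, 2.10 and 1.04 FPKM in NPF and 0.661 FPKM or less in every library of the other groups. These 7 serpins were picked for mention after their values were seen.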
